A study of Mus musculus with 10 samples.

Results

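The 38 genes described here are 31 immediate early genes and 7 heat shock genes, taken by symbol from a list of names, out of 28585 genes in the deposited table of counts. All 38 were in the table and passed the filter on low counts. RNA was sequenced from fluorescent cells sorted from the ischemic hemisphere of mouse brains in 10 libraries. 4 libraries (replicates 23, 24, 26 and 27) held CD11c-eYFP+ cells of Tg(Itgax-Venus)1Mnz mice aged 13 to 14 weeks, called transgenic CD11c cells below. 3 libraries (replicates 3, 11 and 15) held CD11c-eYFP+ cells of C57BL/6 mice aged 15 to 16 weeks that shared their circulation with a Tg(Itgax-Venus)1Mnz partner, called parabiotic CD11c cells. The remaining 3 (replicates 39, 40 and 41) held CX3CR1+ microglia of CX3CR1CreERT2:Rosa26-tdT mice aged 13 to 14 weeks. The mice were female per the labels, with no sex given for parabiotic replicate 15, which also has no cell type label and was placed by its title. All 3 groups were taken from ischemic tissue, so there was no uninjured group.

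Each sort rests on a reporter. In the Venus line a yellow fluorescent protein is driven by the promoter of Itgax, the gene of CD11c, which dendritic cells express and which activated microglia can also express. In the parabiotic host the reporter comes from the partner, so marked cells arrived with the shared blood. In the third line an inducible Cre under Cx3cr1 switches on tdTomato, and Cx3cr1 is expressed by microglia and by some other myeloid cells. The labels number the replicates but do not say how many mice gave each library, so p-values measure the spread between these libraries.

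Immediate early genes are transcribed within minutes of a stimulus from factors already present in the cell. Mitogen-activated protein kinases phosphorylate the ternary complex factors bound with serum response factor at CArG boxes, and cyclic AMP and calcium signals act through CREB at cyclic AMP response elements. Most of the products are transcription factors (AP-1, EGR and NR4A proteins), and another part shuts the signal off again (phosphatases, RNA decay factors and inhibitors of cytokine signalling). Heat shock genes encode chaperones and are switched on by heat shock factor 1 when unfolded proteins build up. Enzymatic dissociation of tissue is known to induce genes of both kinds. The brains of all 3 groups were dissociated with the same enzyme kit, and no undissociated tissue was analysed here.

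Promoter sequence is shown for 3 sets of members: the NR4A genes that were higher in parabiotic CD11c cells than in microglia, as the text turns on them; 2 of the 3 members with a CArG box, as examples of that element; and the near-identical heat shock pair. Each line gives the 250 bases before the RefSeq start of the gene on GRCm38.p6, read 5′ to 3′ on the strand of the gene. Capitals mark TGACG, the core of the cyclic AMP response element, or its reverse complement in the NR4A genes, the CArG box in Zfp36 and Egr2, and GAANNTTC, a pair of heat shock units, in Hspa1a and Hspa1b.
Nr4a2: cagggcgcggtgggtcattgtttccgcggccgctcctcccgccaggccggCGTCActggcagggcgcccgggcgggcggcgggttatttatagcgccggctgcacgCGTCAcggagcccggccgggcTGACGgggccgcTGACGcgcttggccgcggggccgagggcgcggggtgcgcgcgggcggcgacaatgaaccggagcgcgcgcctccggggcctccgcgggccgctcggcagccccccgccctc
Nr4a3: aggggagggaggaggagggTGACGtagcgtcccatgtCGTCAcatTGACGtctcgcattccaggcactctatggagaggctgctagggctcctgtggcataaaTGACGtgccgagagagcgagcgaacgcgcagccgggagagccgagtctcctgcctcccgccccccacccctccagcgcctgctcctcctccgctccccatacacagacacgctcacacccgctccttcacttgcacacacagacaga
Zfp36: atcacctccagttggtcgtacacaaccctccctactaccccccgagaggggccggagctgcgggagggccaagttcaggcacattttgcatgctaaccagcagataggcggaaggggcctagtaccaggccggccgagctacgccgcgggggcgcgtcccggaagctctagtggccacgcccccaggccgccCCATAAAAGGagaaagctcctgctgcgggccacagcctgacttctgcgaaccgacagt
Egr2: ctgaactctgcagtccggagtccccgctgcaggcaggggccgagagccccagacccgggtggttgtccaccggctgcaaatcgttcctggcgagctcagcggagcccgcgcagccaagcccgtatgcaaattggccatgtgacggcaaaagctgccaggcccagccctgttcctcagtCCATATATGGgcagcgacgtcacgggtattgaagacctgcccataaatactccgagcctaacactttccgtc
Hspa1a: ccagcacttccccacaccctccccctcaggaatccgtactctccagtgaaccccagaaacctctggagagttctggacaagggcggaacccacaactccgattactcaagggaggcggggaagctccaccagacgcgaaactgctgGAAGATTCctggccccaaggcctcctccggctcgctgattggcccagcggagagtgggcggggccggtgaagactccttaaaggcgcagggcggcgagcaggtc
Hspa1b: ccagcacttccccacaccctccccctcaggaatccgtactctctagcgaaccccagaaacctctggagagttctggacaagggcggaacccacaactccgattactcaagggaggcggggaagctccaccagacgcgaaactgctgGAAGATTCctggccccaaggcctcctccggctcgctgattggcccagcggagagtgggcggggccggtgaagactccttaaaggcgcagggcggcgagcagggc

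The windows lie at chr2:57124004-57124253 for Nr4a2, chr4:48045055-48045304 for Nr4a3, chr7:28379229-28379478 for Zfp36, chr10:67537619-67537868 for Egr2, chr17:34972157-34972406 for Hspa1a and chr17:34959239-34959488 for Hspa1b. Nr4a3 and Egr2 lie on the plus strand and the other 4 on the minus strand. Nr4a2 and Nr4a3 each held 4 matches of TGACG, searched on both strands. The Hspa1a and Hspa1b windows were identical at 247 of 250 bases (98.8%). RefSeq windows were searched for 31 of the 38 members, and Egr1, Egr3, Myc, Ier2, Nfkbiz, Hspa8 and Hsp90aa1 were not among them. No window of chromosome 18, where Egr1 lies, was searched, and the shares of all genes leave that chromosome out. TGACG was found in 16 of these 31 members and in 19.785% of 27025 genes, with a gene counted if any of its windows held a match. It was found in 4 of 5 members called higher in parabiotic CD11c cells than in microglia (Nr4a2, Nr4a3, Klf4 and Dusp5), in 3 of 12 called lower, and in 9 of 14 not called. The CArG box was found in Egr2, Dusp5 and Zfp36, 3 of 31 members, against 1.624% of all genes. By call it was in 1 of the 5 higher members (Dusp5), 2 of the 12 lower and 0 of the 14 not called, too few to compare. Egr1, Egr3, Myc, Ier2 and Nfkbiz, which were not searched, were also called lower, so the lower class is incomplete in both splits. GAANNTTC was found in 5 of 31 members and in 7.726% of all genes, and the other orientation of the units, TTCNNGAA, in 3 of 31 and in 8.115%. The full element TGACGTCA, which contains TGACG, was found in Dusp1 and Btg2 (2 of 31, against 1.769% of all genes). The AP-1 site TGACTCA was found in 0 of 31 members and in 5.162% of all genes. These matches describe letters in a window and do not show that a factor was bound there.

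Library totals ran from 31534625 to 41730688 counts, and transgenic replicates 26 and 27 carry library numbers apart from the unbroken run that holds the other 8. Levels are given as CPM, the count of a gene over the total of its library on a common scale set by the trimmed mean of M-values (TMM), and as mean ± SD (n = 4 transgenic, n = 3 in each other group). Differences between groups are on the log2 scale with their SE and come from the quasi-likelihood F test of edgeR, positive where the first group named is higher. A gene is called at a Benjamini-Hochberg adjusted p below 0.05 over 15151 tested genes. The 12 microglia markers (such as Sall1, P2ry12 and Tmem119) summed to between 9130 and 22121 CPM in transgenic CD11c cells, between 4042 and 5693 CPM in parabiotic CD11c cells, and between 32316 and 33593 CPM in microglia. The 12 markers of conventional dendritic cells (such as Flt3, Ccr7 and H2-Aa) summed to between 4182 and 17295 CPM in transgenic CD11c cells, between 27424 and 35094 CPM in parabiotic CD11c cells, and between 230 and 350 CPM in microglia. The antigen presentation genes Cd74, H2-Ab1 and H2-Aa made up most of this sum, averaging 15900, 9350 and 5750 CPM in parabiotic CD11c cells. Flt3 averaged 143 CPM and Zbtb46 29.9 CPM there, so the sum mainly follows those antigen presentation genes. No marker of either list was at 0 counts throughout a group. Transgenic replicate 26 had the highest sum of microglia markers of its group and the lowest of dendritic cell markers, and replicate 27 had the lowest sum of microglia markers. Neuron markers summed to at most 5.19 CPM in a library and endothelial markers to at most 50.1 CPM. In sorted bulk samples, fewer cells of a type and less RNA per cell cannot be told apart.

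The 31 immediate early genes together were lowest in parabiotic CD11c cells and highest in microglia, while the 7 heat shock genes did not follow that order. The mean log2 CPM over the immediate early genes was 8.35, 8.37, 7.85 and 7.83 in transgenic replicates 23, 24, 26 and 27. It was 7.74, 7.88 and 7.99 in parabiotic replicates 3, 11 and 15, and 8.50, 8.48 and 8.28 in microglia replicates 39, 40 and 41. Transgenic replicates 23 and 24 lay within the range of microglia, and replicates 26 and 27 within that of parabiotic CD11c cells. Over the heat shock genes the mean was 5.73, 5.85, 5.42 and 5.17 in transgenic CD11c cells, 6.04, 6.05 and 5.99 in parabiotic CD11c cells, and 5.33, 5.84 and 6.26 in microglia. Parabiotic libraries lay above all 4 transgenic libraries on this mean. The microglia libraries lay on both sides of the parabiotic libraries, and transgenic replicate 27 lay below all microglia. Summed over the 31 genes, the immediate early transcripts took 11819 to 18763 CPM in transgenic libraries, 13002 to 16242 CPM in parabiotic libraries and 21518 to 25477 CPM in microglia. The 7 heat shock genes summed to 353 to 548 CPM in transgenic libraries, 591 to 634 CPM in parabiotic libraries and 398 to 714 CPM in microglia.

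**Figure D1:**
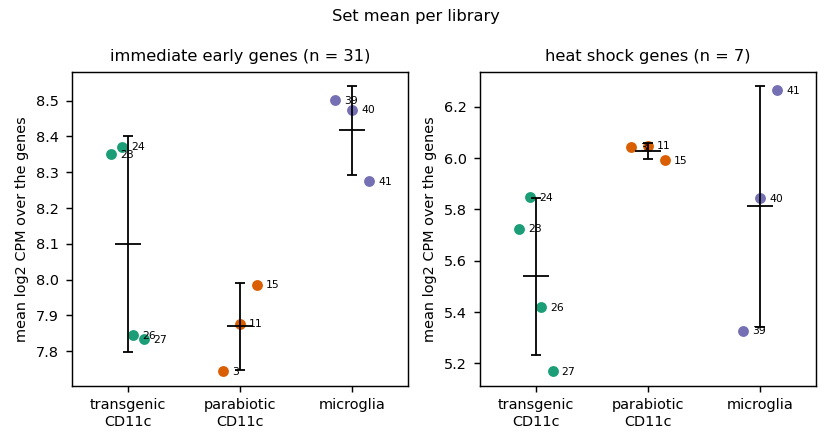
Mean log2 CPM over the 31 immediate early genes (left) and the 7 heat shock genes (right) in each library, with replicate numbers; bars are the mean and SD of each group. The immediate early mean of transgenic CD11c cells splits into replicates 23 and 24 (8.35 and 8.37) and replicates 26 and 27 (7.85 and 7.83), and microglia spread from 5.33 to 6.26 on the heat shock mean.

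Parabiotic CD11c cells against microglia is the comparison named in the design, which asked for genes specific to each population. It called 5 immediate early members higher and 16 lower in parabiotic CD11c cells and left 10 uncalled (67.7% called). Over all tested genes 35.3% were called, 17.4% higher and 17.9% lower. The median log2 fold change was -0.78 over the 31 members and -0.02 over all tested genes. The libraries of both groups did not overlap for 25 members, 7 higher and 18 lower, against 60.3% of all tested genes. Of the heat shock members, 1 of 7 (Dnajb1) was lower and none was called higher by edgeR, where 0 had an unadjusted p below 0.05 and DESeq2 and limma-voom also called 0. The heat shock median was 0.22, and 14.3% of its members were called. The 5 higher members were Nr4a2, Nr4a3, Fosl2, Dusp5 and Klf4, and for each of them the transgenic mean lay between the other 2 group means. Of the 17 lower members of both kinds the transgenic mean lay between for 16 and below both for Dnajb1. Members called here were picked for a gap between parabiotic CD11c cells and microglia, so a transgenic mean within that gap is likely from the selection alone. Among the 16 members of both kinds not called, the transgenic mean lay between for 5, above both for 4 and below both for 7. The same share over all called genes was not tested.

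**Figure D2:**
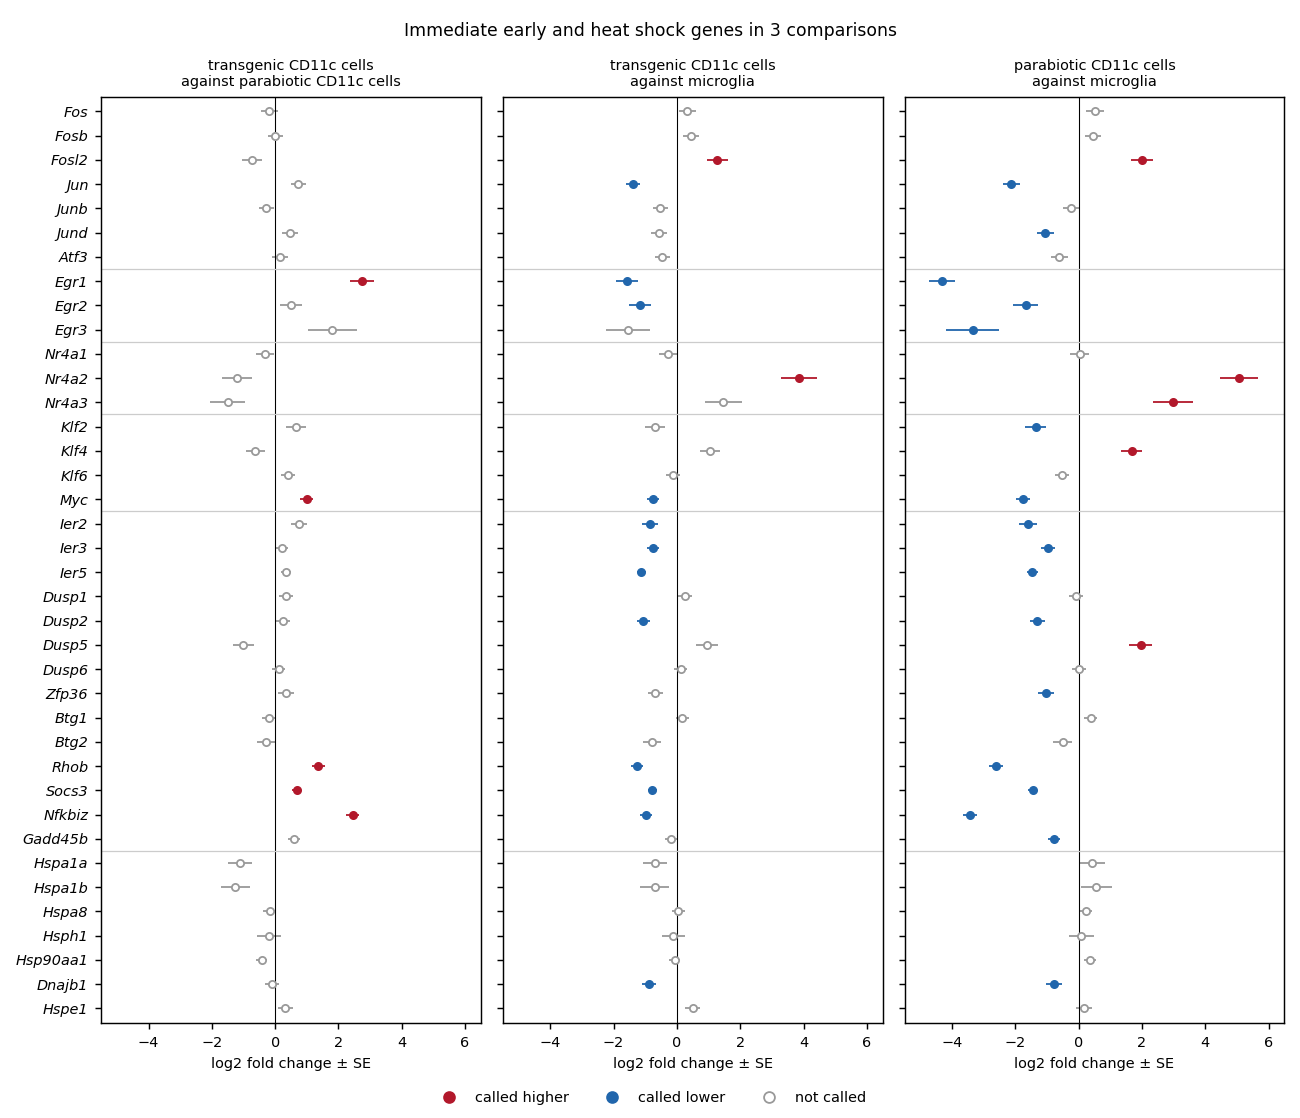
Log2 fold change ± SE of each of the 38 members, ordered by family with heat shock genes at the bottom, for transgenic against parabiotic CD11c cells, transgenic CD11c cells against microglia and parabiotic CD11c cells against microglia. Filled points are called (red higher, blue lower): in the right panel Nr4a2 lies at 5.07 and Egr1 at -4.32, and in the left panel 5 members are called, all of them higher.

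The other comparisons called fewer members. In transgenic CD11c cells against microglia, 2 immediate early members were called higher (Fosl2 and Nr4a2) and 11 lower, leaving 18 uncalled. That is 41.9% called, against 13.7% of all tested genes (8.88% higher and 4.79% lower). The median was -0.57 over the members and 0.02 over all genes, and 17 members did not overlap (1 higher, 16 lower) against 30.3% of all genes. Of the heat shock members 1 of 7, Dnajb1, was lower and 0 were higher with edgeR, DESeq2 or limma-voom, with 0 at an unadjusted p below 0.05. In transgenic against parabiotic CD11c cells, 5 immediate early members were higher (Egr1, Nfkbiz, Rhob, Myc and Socs3), or 16.1% of them against 7.63% of all tested genes called higher, 2.42% lower and 10.1% in either direction. None was called lower by edgeR, where 4 had an unadjusted p below 0.05, DESeq2 called 2 and limma-voom 0. The median was 0.34 over the members and 0.04 over all genes, and 15 did not overlap (10 higher, 5 lower) against 22.7% of all genes. Of the heat shock members 0 of 7 were called, with 3 at an unadjusted p below 0.05, all lower, 2 of them called by DESeq2 and 0 by limma-voom. The 3 comparisons share groups and so are not independent of each other.

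These counts depended on single libraries where transgenic cells took part. Within library numbers, that is with a term for transgenic replicates 26 and 27, the transgenic mean rests on replicates 23 and 24, and 8 immediate early members were higher than in parabiotic CD11c cells: Egr1, Egr3, Jun, Jund, Myc, Nfkbiz, Rhob and Socs3. That fit called 8.15% of all tested genes higher. Against microglia the same fit called 5 higher (Fosb, Fosl2, Nr4a2, Nr4a3 and Dusp5) and 8 lower, since Egr1, Egr2 and Ier2 were no longer called, nor was Dnajb1 (-0.63, adjusted p = 0.133). Over all tested genes it called 6.75% higher and 1.85% lower than in microglia. Without transgenic replicate 27, 9 members were higher than in parabiotic CD11c cells. Without microglia replicate 39, 5 members were lower in transgenic CD11c cells than in microglia, and without replicate 40, 7 were. Without transgenic replicate 26, 5 were higher than in microglia, and without any 1 of the microglia libraries 1 was. Of the 22 members called between parabiotic CD11c cells and microglia, 20 were called in each of the 18 other settings tried, the exceptions being Gadd45b and Dnajb1.

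**Figure D3:**
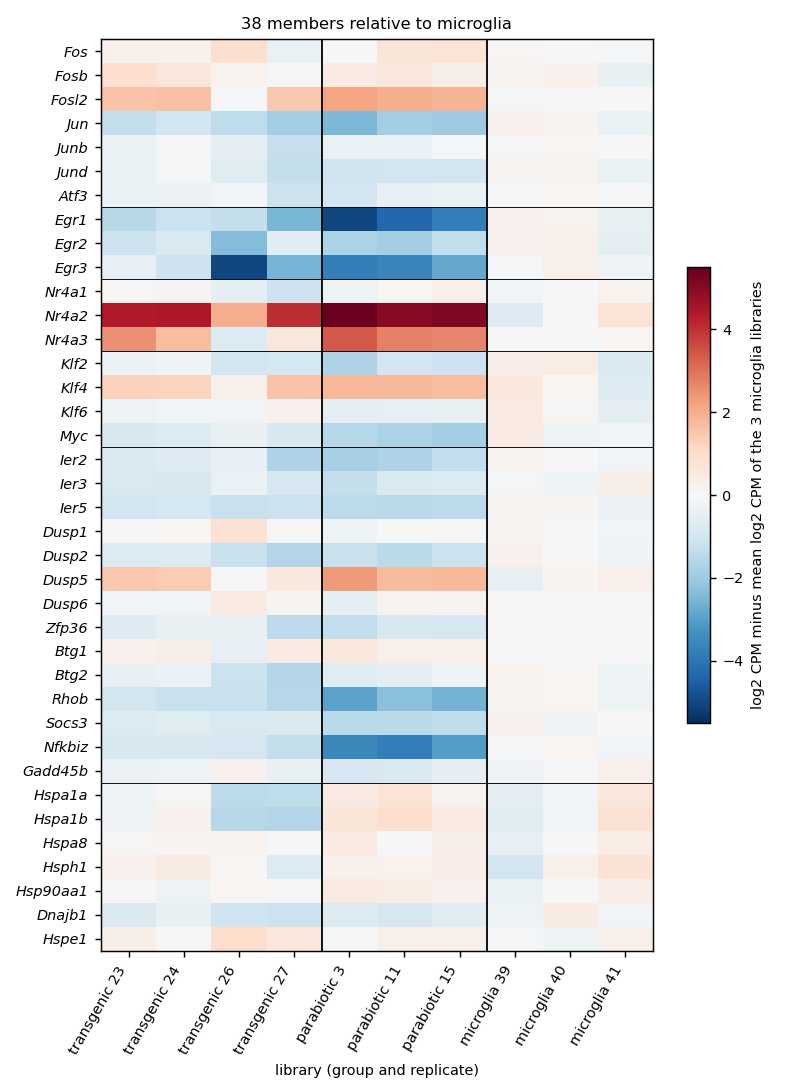
Log2 CPM of each of the 38 members in each of the 10 libraries, minus the mean log2 CPM of the 3 microglia libraries, with red for higher and blue for lower. Thick vertical lines part transgenic CD11c cells, parabiotic CD11c cells and microglia, and thin horizontal lines part the families. Nr4a2 is dark red in the parabiotic libraries and palest among the transgenic libraries in replicate 26, and Egr1 and Nfkbiz are blue in the parabiotic libraries.

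The AP-1 family split within itself. AP-1 is a dimer of a Fos protein with a Jun protein. Of its 7 members here, 1 was higher (Fosl2) and 2 were lower (Jun and Jund) in parabiotic CD11c cells than in microglia, and 4 were not called. Fos (chromosome 12, 85473890 to 85477273, plus strand), the founding member of the family, stood at 1674, 1673, 2622 and 1084 CPM in transgenic libraries, 1429, 2222 and 2356 CPM in parabiotic libraries and 1492, 1419 and 1315 CPM in microglia. The groups overlapped, with a log2 fold change of 0.51 ± 0.29 for parabiotic CD11c cells against microglia (95% interval -0.13 to 1.15, edgeR adjusted p = 0.201). With only those groups in the fit the value was the same and the adjusted p was 0.0459. Fosb, a second Fos protein, averaged 320 ± 99.7 CPM in transgenic CD11c cells (n = 4), 319 ± 35.0 in parabiotic CD11c cells and 234 ± 52.4 in microglia (n = 3 each), and was not called in the 3 comparisons.

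Fosl2 (chromosome 5, 32135801 to 32157842, plus strand), which encodes the Fos protein Fra-2, went a different way from Fos. It stood at 216, 226, 67.8 and 210 CPM in transgenic libraries, 331, 292 and 267 CPM in parabiotic libraries and 71.5, 75.2 and 75.3 CPM in microglia. All parabiotic libraries lay above all microglia libraries, and 3 of 4 transgenic libraries did, with replicate 26 below them. The log2 fold change was 2.0 ± 0.36 for parabiotic CD11c cells against microglia (edgeR adjusted p = 0.00142) and 1.28 ± 0.34 for transgenic CD11c cells against microglia (adjusted p = 0.0295). The second call was lost without any 1 of the microglia libraries (adjusted p = 0.08 to 0.124), with limma-voom (adjusted p = 0.059) and with only those groups in the fit (adjusted p = 0.069). Between transgenic and parabiotic CD11c cells Fosl2 was not called (-0.72 ± 0.32, adjusted p = 0.199), and it was called without transgenic replicate 26 (-0.51, adjusted p = 0.0305).

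Jun (chromosome 4, 95049034 to 95052222, minus strand), the main partner of Fos, stood at 602, 756, 575 and 415 CPM in transgenic libraries, 269, 412 and 377 CPM in parabiotic libraries and 1761, 1690 and 1159 CPM in microglia. No microglia library overlapped with the other groups. The log2 fold change was -2.12 ± 0.26 in parabiotic CD11c cells against microglia (adjusted p = 0.000121) and -1.39 ± 0.23 in transgenic CD11c cells against microglia (adjusted p = 0.00358). All 4 transgenic libraries lay above the 3 parabiotic libraries, but this was not called (0.74 ± 0.24, adjusted p = 0.0801). It was called with DESeq2 (0.71, adjusted p = 0.0343), within library numbers (0.95, adjusted p = 0.0359) and without transgenic replicate 27 (0.87, adjusted p = 0.0193). Jund, a more steadily expressed Jun protein, stood at 157, 185, 125 and 80.5 CPM in transgenic libraries, 93.3, 100.1 and 100.5 CPM in parabiotic libraries and 222, 233 and 157 CPM in microglia. Its level was lower in parabiotic CD11c cells than in microglia (-1.06 ± 0.27, adjusted p = 0.0109). The antisense gene Gm11175 overlaps 52.6% of the exon bases of Jund, and without a strand setting reads of both cannot be told apart.

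Junb, a Jun protein that can oppose Jun, was the most abundant member per length in all 3 groups, at 912 CPM per kilobase of exon in transgenic CD11c cells, 1100 in parabiotic CD11c cells and 1310 in microglia. Its CPM was 2299, 2788, 2063 and 1244 in transgenic libraries, 2332, 2377 and 2916 in parabiotic libraries and 2859, 3242 and 2927 in microglia. Parabiotic CD11c cells and microglia overlapped (-0.24 ± 0.25, 95% interval -0.80 to 0.31, adjusted p = 0.489). Atf3, a stress-induced repressor of the same leucine zipper class, averaged 750 ± 207 CPM in transgenic CD11c cells, 675 ± 162 in parabiotic CD11c cells and 1031 ± 62.9 in microglia. Every parabiotic library lay below every microglia library, yet Atf3 was not called (-0.61 ± 0.26, adjusted p = 0.0903), except without transgenic replicate 27 (-0.60, adjusted p = 0.0222) or with only those groups in the fit (-0.61, adjusted p = 0.0179).

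**Figure D4:**
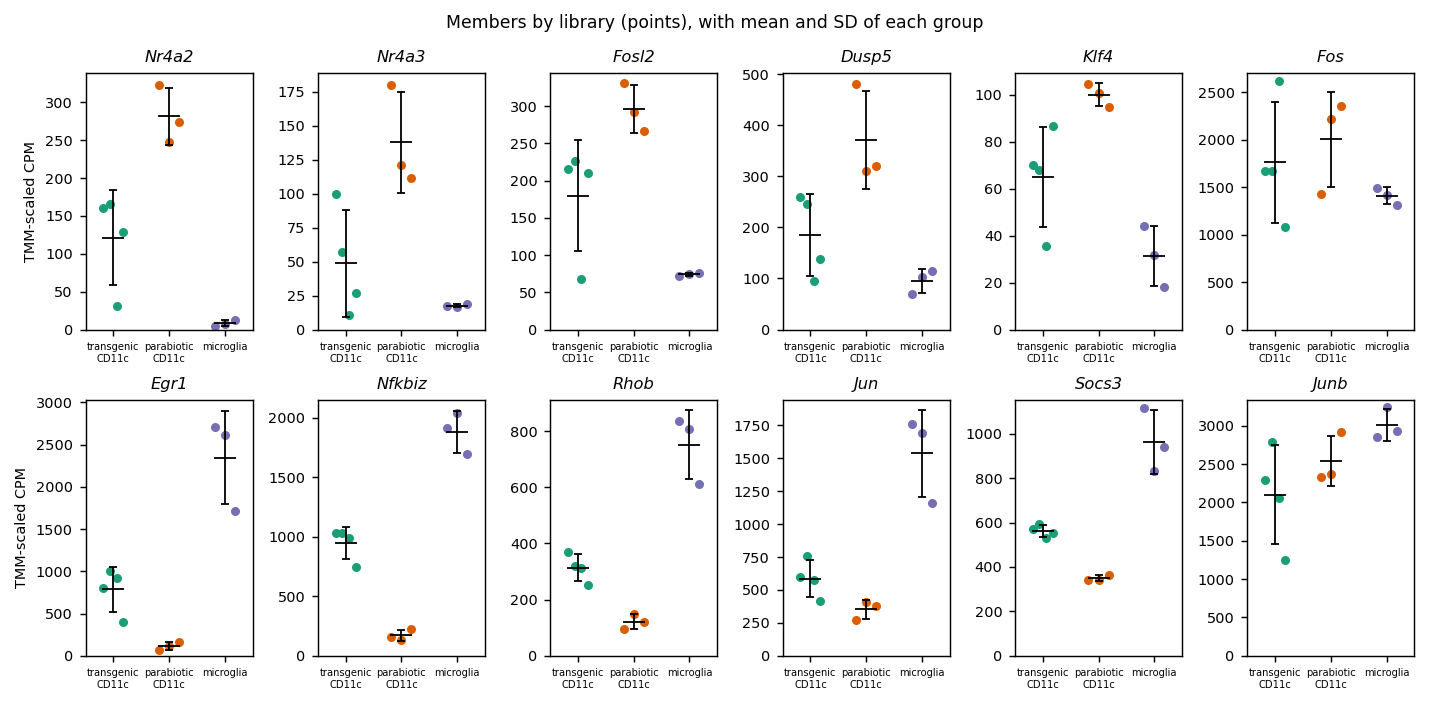
TMM-scaled CPM of 12 members in each library (points) for transgenic CD11c cells, parabiotic CD11c cells and microglia, with the mean and SD of each group as bars; each panel has its own axis from 0. Nr4a2, Nr4a3, Fosl2, Dusp5 and Klf4 have their highest mean in parabiotic CD11c cells, while Egr1, Nfkbiz, Rhob, Jun and Socs3 have their highest in microglia, with all transgenic libraries between.

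Within a library the ratios of Fos to Jun and of Fos to Egr1 differed between the groups. Per kilobase of exon, Fos stood at 3.77, 3.0, 6.19 and 3.54 times the level of Jun in transgenic libraries, 7.21, 7.31 and 8.48 times in parabiotic libraries and 1.15, 1.14 and 1.54 times in microglia. The same ratio of Fos to Egr1 was 3.97, 3.17, 5.41 and 5.11 in transgenic libraries, 38, 37.2 and 27.1 in parabiotic libraries and 1.05, 1.04 and 1.46 in microglia. The 3 groups did not overlap on either ratio. They did not overlap for Jun or Egr1 alone either, while they did for Fos, so the ratios are not separate evidence. Such ratios do not depend on how a library is scaled.

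EGR genes encode zinc finger factors that rise with mitogen-activated kinase signalling, and all 3 members were lower in parabiotic CD11c cells than in microglia. Egr1 (chromosome 18, 34859823 to 34864984, plus strand) stood at 804, 1008, 923 and 404 CPM in transgenic libraries, 71.7, 114 and 166 CPM in parabiotic libraries and 2705, 2613 and 1711 CPM in microglia. The groups stood apart without overlap. Egr1 was lower in parabiotic CD11c cells than in microglia by -4.32 ± 0.41 (adjusted p = 2.43e-05), and higher in transgenic than in parabiotic CD11c cells by 2.75 ± 0.37 (6.70-fold, adjusted p = 0.001). Transgenic CD11c cells were also lower than microglia for Egr1 (-1.58 ± 0.34, adjusted p = 0.0121), a call lost within library numbers (-1.37, adjusted p = 0.0765) and without microglia replicate 39 (adjusted p = 0.0601) or 40 (adjusted p = 0.0546).

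Egr2, which carries the printed CArG box, stood at 57.5, 73.7, 24.8 and 85.5 CPM in transgenic libraries, 39.5, 36.5 and 51.7 CPM in parabiotic libraries and 154, 161 and 91.6 CPM in microglia. The transgenic libraries spanned the parabiotic range and stayed below microglia. Egr2 was lower in parabiotic CD11c cells (-1.67 ± 0.39, adjusted p = 0.00645) and in transgenic CD11c cells (-1.17 ± 0.35, adjusted p = 0.0497) than in microglia. The second call was lost within library numbers (-1.05, adjusted p = 0.216) and without transgenic replicate 23, microglia replicate 39 or 40 or any 1 parabiotic library (adjusted p = 0.0684 to 0.17). It was also lost with no filter on low counts (adjusted p = 0.059) and with only those groups in the fit (adjusted p = 0.0982). Egr3 was scarce, at 3.4 ± 3.07 CPM in transgenic CD11c cells, 0.968 ± 0.373 CPM in parabiotic CD11c cells and 9.89 ± 1.66 CPM in microglia. Egr3 was lower in parabiotic CD11c cells than in microglia (-3.35 ± 0.83, adjusted p = 0.00935), and in the transgenic group it ranged from 0.304 CPM in replicate 26 to 7.23 CPM in replicate 23. Without replicate 26 it was called higher in transgenic than in parabiotic CD11c cells (2.13, adjusted p = 0.0231), as it was within library numbers. Its lowest count in a library was 12, where counting error alone gives a coefficient of variation of 28.9%.

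NR4A genes encode orphan nuclear receptors that respond to cyclic AMP and to calcium, and here the family changed its make-up between the groups. Nr4a1 (Nur77) stood at 1193, 1283, 818 and 525 CPM in transgenic libraries, 964, 1200 and 1403 CPM in parabiotic libraries and 1047, 1129 and 1303 CPM in microglia. Those ranges overlapped, and Nr4a1 was not called in any of the 3 comparisons. Nr4a2 (chromosome 2, 57106830 to 57124003, minus strand), the gene of Nurr1, stood at 161, 165, 30.5 and 129 CPM in transgenic libraries, 323, 248 and 274 CPM in parabiotic libraries and 4.72, 7.58 and 12.9 CPM in microglia. The 3 groups did not overlap. Nr4a2 had the highest log2 fold change of the 38 members, 5.07 ± 0.61 in parabiotic CD11c cells against microglia (33.6-fold, adjusted p = 0.000102), and 3.86 ± 0.56 in transgenic CD11c cells against microglia (14.5-fold, adjusted p = 0.0015). Between transgenic and parabiotic CD11c cells the value was -1.21 ± 0.47 (adjusted p = 0.141).

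Nr4a3 (chromosome 4, 48045153 to 48086447, plus strand), the gene of Nor1, stood at 100.1, 57.2, 10.4 and 26.9 CPM in transgenic libraries, 180, 122 and 112 CPM in parabiotic libraries and 17.2, 16.6 and 18.9 CPM in microglia. Transgenic libraries lay on both sides of microglia, while the parabiotic libraries lay above all others. It was higher in parabiotic CD11c cells than in microglia (2.97 ± 0.63, 7.85-fold, adjusted p = 0.00387). Transgenic CD11c cells were not called apart from microglia (1.47 ± 0.57, adjusted p = 0.105), but were with DESeq2 (1.43, adjusted p = 0.0378), within library numbers (2.16, adjusted p = 0.00543) and without transgenic replicate 26 (1.77, adjusted p = 0.0147). Against parabiotic CD11c cells the value was -1.50 ± 0.55 (adjusted p = 0.115). It was called with DESeq2 (-1.52, adjusted p = 0.0311) and without transgenic replicate 23 (-2.13, adjusted p = 0.0215). As a share of the summed CPM per kilobase of the 3 NR4A genes, Nr4a2 took 9.98%, 9.80%, 3.10% and 17.1% in transgenic libraries, 20.7%, 14.5% and 13.9% in parabiotic libraries and 0.384%, 0.573% and 0.838% in microglia. Nr4a1 took the rest but for 0.717% to 7.83% that fell to Nr4a3.

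**Figure D5:**
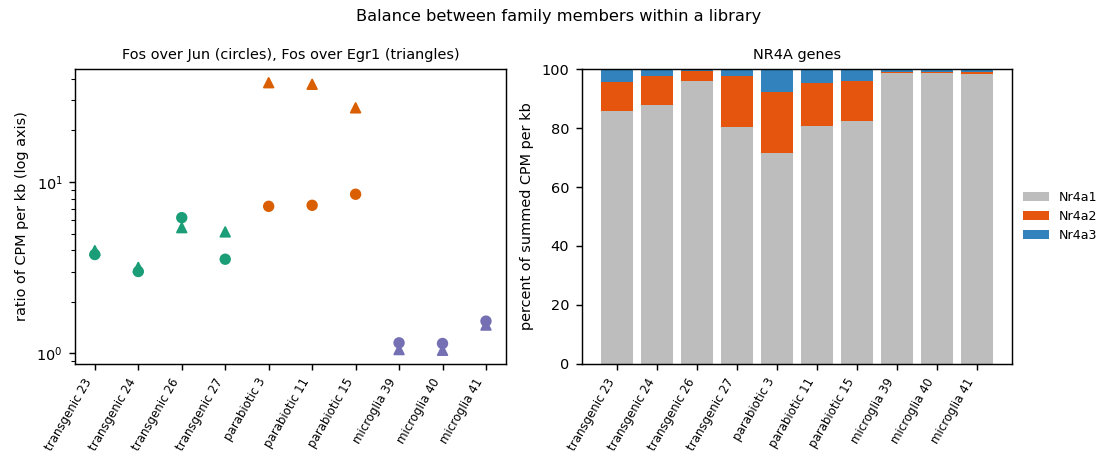
Left, ratio of Fos to Jun (circles) and of Fos to Egr1 (triangles) in CPM per kilobase of exon, on a log axis, for each library of transgenic CD11c cells (green), parabiotic CD11c cells (orange) and microglia (purple). Right, share of Nr4a1, Nr4a2 and Nr4a3 in their summed CPM per kilobase, where Nr4a2 takes 13.9% to 20.7% in parabiotic libraries and under 1% in microglia.

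Krüppel-like factors and Myc form the next group. Klf4, which takes part in monocyte differentiation, stood at 69.9, 67.9, 35.5 and 86.8 CPM in transgenic libraries, 105, 101 and 94.8 CPM in parabiotic libraries and 44.1, 31.8 and 18.2 CPM in microglia. The parabiotic libraries lay above all others, and transgenic replicate 26 lay among the microglia. It was higher in parabiotic CD11c cells than in microglia (1.67 ± 0.34, 3.19-fold, adjusted p = 0.00319). Transgenic CD11c cells were not called apart from microglia (1.05 ± 0.32, adjusted p = 0.0524), but were with DESeq2 (1.01, adjusted p = 0.016) and without transgenic replicate 26 (1.24, adjusted p = 0.0137). Klf2, a factor of the same family linked to quiescence, ran the other way, with 173, 185, 107 and 114 CPM in transgenic libraries, 67.3, 107 and 101 CPM in parabiotic libraries and 286, 290 and 127 CPM in microglia. It was lower in parabiotic CD11c cells than in microglia (-1.35 ± 0.34, adjusted p = 0.00922). Without microglia replicate 41 it was also lower in transgenic CD11c cells than in microglia (-1.0, adjusted p = 0.0475).

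Myc, a regulator of cell growth, stood at 55.7, 59.6, 76.1 and 54.4 CPM in transgenic libraries, 33.9, 30.7 and 28.1 CPM in parabiotic libraries and 137, 83.4 and 91.8 CPM in microglia. The 3 groups did not overlap. Myc was lower in parabiotic CD11c cells than in microglia (-1.75 ± 0.22, adjusted p = 0.000124), lower in transgenic CD11c cells than in microglia (-0.76 ± 0.20, adjusted p = 0.0265) and higher in transgenic than in parabiotic CD11c cells (0.99 ± 0.20, adjusted p = 0.00956). Without microglia replicate 39 the second value was -0.52 (adjusted p = 0.136), with only those groups in the fit it was -0.75 (adjusted p = 0.069), and without parabiotic replicate 15 the third was 0.92 (adjusted p = 0.0568). Klf6 averaged 425 ± 71.6 CPM in transgenic CD11c cells, 324 ± 17.3 in parabiotic CD11c cells and 465 ± 153 in microglia. It was not called, except without microglia replicate 41, when it was lower in parabiotic CD11c cells than in microglia (-0.76, adjusted p = 0.0156).

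The 14 members that act as feedback or as early effectors are the largest family. Of these, 9 were lower and 1 was higher in parabiotic CD11c cells than in microglia, where 17.9% of all tested genes were lower and 17.4% higher. All 3 EGR members were lower there too, so the number of lower calls partly follows family size. Nfkbiz (chromosome 16, 55811375 to 55838899, minus strand) encodes IκBζ, a nuclear protein that NF-κB needs at a set of inflammatory genes. It stood at 1029, 1030, 990 and 749 CPM in transgenic libraries, 161, 136 and 223 CPM in parabiotic libraries and 1917, 2035 and 1692 CPM in microglia. The 3 groups stood apart without overlap. Its log2 fold change was -3.44 ± 0.23 in parabiotic CD11c cells against microglia (a 10.8-fold higher level in microglia, adjusted p = 3.28e-06), 2.45 ± 0.21 in transgenic against parabiotic CD11c cells (5.48-fold, adjusted p = 5.48e-05) and -0.99 ± 0.19 in transgenic CD11c cells against microglia (adjusted p = 0.00769).

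Rhob (chromosome 12, 8497661 to 8500009, minus strand), a small GTPase of endosomes, stood at 369, 321, 314 and 251 CPM in transgenic libraries, 95.3, 149 and 121 CPM in parabiotic libraries and 834, 808 and 611 CPM in microglia. It showed the same order without overlap. Rhob was lower in parabiotic CD11c cells than in microglia (-2.62 ± 0.22, adjusted p = 1.24e-05), lower in transgenic CD11c cells than in microglia (-1.26 ± 0.19, adjusted p = 0.00216) and higher in transgenic than in parabiotic CD11c cells (1.36 ± 0.20, adjusted p = 0.00167). Socs3, an inhibitor of JAK-STAT signalling downstream of interleukin 6, stood at 571, 595, 531 and 553 CPM in transgenic libraries, 342, 343 and 366 CPM in parabiotic libraries and 1115, 832 and 939 CPM in microglia. Its groups were tight and did not overlap. Socs3 was lower in parabiotic CD11c cells than in microglia (-1.46 ± 0.15, adjusted p = 4.08e-05) and in transgenic CD11c cells than in microglia (-0.77 ± 0.14, adjusted p = 0.00483). It was higher in transgenic than in parabiotic CD11c cells (0.68 ± 0.14, adjusted p = 0.0105), a call lost without parabiotic replicate 3 (adjusted p = 0.0614) or 11 (adjusted p = 0.0615).

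The IER genes are early response genes of mixed function. Ier5 stood at 364, 375, 318 and 324 CPM in transgenic libraries, 275, 268 and 277 CPM in parabiotic libraries and 829, 825 and 600 CPM in microglia. Ier5 was lower in parabiotic CD11c cells (-1.46 ± 0.17, adjusted p = 6.44e-05) and in transgenic CD11c cells (-1.12 ± 0.15, adjusted p = 0.00094) than in microglia, and all transgenic libraries lay above all parabiotic libraries. Ier2 stood at 361, 377, 458 and 189.6 CPM in transgenic libraries, 177, 193 and 246 CPM in parabiotic libraries and 696, 612 and 559 CPM in microglia. Transgenic replicate 27 lay among the parabiotic libraries and the other 3 above them, and microglia lay above all. Ier3 averaged 221 ± 42.2 CPM in transgenic CD11c cells, 191 ± 36.4 CPM in parabiotic CD11c cells and 373 ± 77.0 CPM in microglia. Ier2 and Ier3 were lower in parabiotic CD11c cells than in microglia by -1.60 ± 0.28 (adjusted p = 0.00118) and -0.97 ± 0.22 (adjusted p = 0.00547). They were also called lower in transgenic CD11c cells than in microglia, by -0.85 ± 0.25 (adjusted p = 0.0489) for Ier2 and -0.76 ± 0.20 (adjusted p = 0.0312) for Ier3. The Ier2 call was lost in 8 of the 10 settings that leave out 1 library (adjusted p up to 0.171), all but those without transgenic replicates 26 and 27. It was also lost within library numbers (adjusted p = 0.198) and with only those groups in the fit (adjusted p = 0.0942). The Ier3 call was lost in 6 of 10 (adjusted p up to 0.113), without transgenic replicates 23, 24 and 27 and without each microglia library, and with only those groups in the fit (adjusted p = 0.059). Without transgenic replicate 27, Ier2 was called higher in transgenic than in parabiotic CD11c cells (0.97, adjusted p = 0.00311).

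DUSP genes encode phosphatases that switch off mitogen-activated kinases, and their members differed in direction. Dusp5, a nuclear phosphatase of ERK, stood at 260, 246, 95.6 and 138 CPM in transgenic libraries, 481, 311 and 320 CPM in parabiotic libraries and 69.3, 103 and 114 CPM in microglia. The parabiotic libraries lay above all others, and transgenic replicate 26 lay within the microglia range. It was higher in parabiotic CD11c cells than in microglia (1.95 ± 0.37, 3.88-fold, adjusted p = 0.00195). Transgenic CD11c cells were not called apart from microglia (0.95 ± 0.34, adjusted p = 0.0846), but were with DESeq2 (0.91, adjusted p = 0.0468), without transgenic replicate 26 (1.14, adjusted p = 0.026) and within library numbers (1.40, adjusted p = 0.00781). DESeq2 also called Dusp5 lower in transgenic than in parabiotic CD11c cells (-1.03, adjusted p = 0.0275), where edgeR did not (-1.0 ± 0.33, adjusted p = 0.0853). An antisense gene overlaps 22.1% of the exon bases of Dusp5.

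Dusp2, another nuclear phosphatase, stood at 231, 229, 164 and 127 CPM in transgenic libraries, 165, 139.9 and 169 CPM in parabiotic libraries and 451, 391 and 329 CPM in microglia. Dusp2 was lower in parabiotic CD11c cells (-1.31 ± 0.23, adjusted p = 0.00141) and in transgenic CD11c cells (-1.06 ± 0.21, adjusted p = 0.00935) than in microglia, the second call lost without microglia replicate 39 (-0.95, adjusted p = 0.0582). Dusp1 and Dusp6, which act on p38 and on cytoplasmic ERK, were not called in the 3 comparisons. Dusp1 averaged 1296 ± 379 CPM in transgenic CD11c cells, 1024 ± 110 in parabiotic CD11c cells and 1086 ± 110 in microglia, and Dusp6 averaged 303 ± 68.5 CPM in transgenic CD11c cells, 281 ± 70.5 in parabiotic CD11c cells and 279 ± 14.4 in microglia.

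Of the other feedback members, Zfp36 encodes tristetraprolin, which speeds the decay of cytokine messengers, and it also carries a printed CArG box. It stood at 1552, 1908, 1875 and 921 CPM in transgenic libraries, 975, 1385 and 1334 CPM in parabiotic libraries and 2657, 2393 and 2519 CPM in microglia. It was lower in parabiotic CD11c cells than in microglia (-1.03 ± 0.26, adjusted p = 0.00957), and no library of either CD11c group reached the microglia range. Transgenic CD11c cells were called lower than microglia by DESeq2 alone (-0.73, adjusted p = 0.0278). Gadd45b, a stress-induced activator of kinase cascades, averaged 241 ± 51.7 CPM in transgenic CD11c cells, 160 ± 21.9 in parabiotic CD11c cells and 275 ± 47.4 in microglia. Parabiotic CD11c cells were lower than microglia for Gadd45b (-0.78 ± 0.20, adjusted p = 0.0123), a call lost without parabiotic replicate 3 (adjusted p = 0.0564) or 11 (adjusted p = 0.0504) or microglia replicate 41 (adjusted p = 0.052). Without transgenic replicate 27 it was higher in transgenic than in parabiotic CD11c cells (0.66, adjusted p = 0.043). The antiproliferative genes Btg1 and Btg2 were not called by the edgeR fit over all 10 libraries. Btg1 averaged 515 ± 128 CPM in transgenic CD11c cells, 595 ± 68.0 in parabiotic CD11c cells and 457 ± 14.8 in microglia, and Btg2 averaged 848 ± 342 CPM in transgenic CD11c cells, 1034 ± 137 in parabiotic CD11c cells and 1464 ± 235 in microglia. All libraries of both CD11c groups lay below microglia for Btg2. Against microglia it was called lower in transgenic CD11c cells with DESeq2 (-0.83, adjusted p = 0.0345) and without transgenic replicate 24 (-0.98, adjusted p = 0.0399). In parabiotic CD11c cells Btg2 was called lower with only those groups in the fit (adjusted p = 0.0244) and with the term for transgenic replicates 26 and 27 (adjusted p = 0.0338). Btg1 was called higher in parabiotic CD11c cells than in microglia with only those groups in the fit (0.38, adjusted p = 0.0218) and without transgenic replicate 26 (0.41, adjusted p = 0.0355).

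Of the 7 heat shock genes only Dnajb1 was called in any of the 3 comparisons, and the inducible pair spread widely within groups. Hspa1a and Hspa1b (chromosome 17, 34969190 to 34972156 and 34956436 to 34959238, both minus strand) encode the inducible cytosolic chaperone of the heat shock response. Hspa1a stood at 47.5, 60.4, 21.7 and 21.9 CPM in transgenic libraries, 80.6, 99 and 67.3 CPM in parabiotic libraries and 41.3, 52.8 and 89.5 CPM in microglia. Hspa1b stood at 63.5, 85.7, 24.9 and 23.9 CPM in transgenic libraries, 116, 137 and 101 CPM in parabiotic libraries and 45.7, 66.0 and 129 CPM in microglia. For both genes all transgenic libraries lay below all parabiotic libraries, transgenic replicates 26 and 27 were lowest, and microglia spanned the gap. Against parabiotic CD11c cells the transgenic log2 fold changes were -1.12 ± 0.38 for Hspa1a (adjusted p = 0.0922) and -1.26 ± 0.46 for Hspa1b (adjusted p = 0.118), neither called. Both were called without transgenic replicate 24 (-1.44, adjusted p = 0.0349 for Hspa1a and -1.66, adjusted p = 0.0433 for Hspa1b) and by DESeq2 (-1.14, adjusted p = 0.0294 and -1.28, adjusted p = 0.0398), and within library numbers the values were -0.61 (adjusted p = 0.227) and -0.66 (adjusted p = 0.277). Another gene shares 66.3% of the 50-base words of Hspa1a and 62.3% of those of Hspa1b, mostly each other, so the split of reads between this pair is uncertain.

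Dnajb1 (chromosome 8, 83608193 to 83612653, plus strand), a co-chaperone of that protein, stood at 86.1, 113, 69.2 and 66.4 CPM in transgenic libraries, 89.0, 80.1 and 99 CPM in parabiotic libraries and 123, 205 and 134 CPM in microglia. Every library of either CD11c group lay below every microglia library. Dnajb1 was lower in transgenic CD11c cells (-0.88 ± 0.23, adjusted p = 0.0276) and in parabiotic CD11c cells (-0.78 ± 0.25, adjusted p = 0.0286) than in microglia. Without microglia replicate 40 these were -0.64 (adjusted p = 0.152) and -0.55 (adjusted p = 0.131). The transgenic call was also lost within library numbers and with only those groups in the fit (-0.87, adjusted p = 0.0685), and the parabiotic call was also lost without any 1 parabiotic library (adjusted p = 0.0555 to 0.104). The other 4 heat shock members were not called. Hspa8, the constitutive relative of Hspa1a, averaged 190 ± 17.9 CPM in transgenic CD11c cells, 215 ± 31.1 in parabiotic CD11c cells and 184 ± 54.4 in microglia. Hsp90aa1, an inducible HSP90 chaperone, averaged 38.7 ± 4.25 CPM in transgenic CD11c cells, 52.2 ± 4.92 in parabiotic CD11c cells and 40.8 ± 10.4 in microglia. Hsph1, a nucleotide exchange factor for these chaperones, averaged 33.8 ± 10.7 CPM in transgenic CD11c cells, 38.5 ± 2.51 in parabiotic CD11c cells and 36.4 ± 20.1 in microglia. Hspe1, a mitochondrial co-chaperonin, averaged 17.3 ± 4.96 CPM in transgenic CD11c cells, 13.8 ± 1.23 in parabiotic CD11c cells and 12.2 ± 2.30 in microglia. Other genes share 74.8% of the 50-base words of Hspa8, 58.5% of those of Hsp90aa1 and 44.8% of those of Hspe1, so their levels are uncertain.

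Other genes of the same pathways also went in both directions. Of 40 other immediate early genes, 7 were higher and 12 were lower in parabiotic CD11c cells than in microglia, where 17.4% of all tested genes were higher and 17.9% lower. Among the higher ones were Crem and Sik1, a regulator and a kinase of the cyclic AMP response, and Bhlhe40, a repressor of the helix-loop-helix class. Crem averaged 98.3 ± 25.3 CPM in transgenic CD11c cells, 214 ± 43.4 in parabiotic CD11c cells and 24.2 ± 7.58 in microglia (3.15 ± 0.30 for parabiotic CD11c cells against microglia, adjusted p = 2.51e-05). Sik1 averaged 99.8 ± 46.6 CPM in transgenic CD11c cells, 262 ± 14.7 in parabiotic CD11c cells and 32.1 ± 6.87 in microglia (3.03 ± 0.43 for the same contrast, adjusted p = 0.000297). Bhlhe40 averaged 326 ± 87.3 CPM in transgenic CD11c cells, 635 ± 81.6 in parabiotic CD11c cells and 44.5 ± 25.1 in microglia (3.83 ± 0.42, adjusted p = 5.49e-05). Crem, Sik1 and Tiparp, an ADP-ribosylating enzyme, were lower in transgenic than in parabiotic CD11c cells, by -1.12 ± 0.26 (adjusted p = 0.0187), -1.39 ± 0.37 (adjusted p = 0.0353) and -0.69 ± 0.20 (adjusted p = 0.0471). Among the lower ones in parabiotic CD11c cells were the GTP-binding protein gene Gem, the kinase phosphatase Dusp8 and Tnfaip3, an inhibitor of NF-κB. Gem averaged 123 ± 27.3 CPM in transgenic CD11c cells, 13.0 ± 3.80 in parabiotic CD11c cells and 285 ± 6.25 in microglia (-4.46 ± 0.27 for parabiotic CD11c cells against microglia, adjusted p = 2.37e-06). Tnfaip3 averaged 862 ± 189 CPM in transgenic CD11c cells, 325 ± 55.5 in parabiotic CD11c cells and 1540 ± 302 in microglia (-2.24 ± 0.24, adjusted p = 4.61e-05). In transgenic CD11c cells 9 of the 40 were higher and 3 lower than in parabiotic CD11c cells, and 4 were higher and 9 lower than in microglia. Over all tested genes 7.63% were higher and 2.42% lower in the first comparison, and 8.88% higher and 4.79% lower in the second.

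Of 22 kinases and factors upstream of the immediate early genes, 4 were higher and 3 were lower in parabiotic CD11c cells than in microglia. Over all tested genes 35.3% were called in that comparison, a share that none of the gene lists in this paragraph exceeded. Map3k8, a kinase upstream of ERK in Toll-like receptor signalling, averaged 102 ± 26.6 CPM in transgenic CD11c cells, 46.2 ± 9.98 in parabiotic CD11c cells and 163 ± 42.5 in microglia. It was lower in parabiotic CD11c cells than in microglia (-1.82 ± 0.27, adjusted p = 0.000382) and higher in transgenic than in parabiotic CD11c cells (1.14 ± 0.25, adjusted p = 0.0146). Elk1, a ternary complex factor, averaged 8.94 ± 1.64 CPM in transgenic CD11c cells, 13.1 ± 2.02 in parabiotic CD11c cells and 5.79 ± 0.479 in microglia and was higher in parabiotic CD11c cells than in microglia (1.17 ± 0.22, adjusted p = 0.00191). Between transgenic CD11c cells and microglia edgeR called 0 of the 22, where 5 had an unadjusted p below 0.05, DESeq2 called 3 and limma-voom 0. There edgeR called 13.7% of all tested genes. Of 25 tested genes of the wider heat shock response, 6 were higher and 2 lower in parabiotic CD11c cells than in microglia. The lower pair, the co-chaperones Dnaja4 and Dnajb4, stood at 5.33 ± 0.586 and 38.7 ± 7.39 CPM in transgenic CD11c cells, 0.623 ± 0.324 and 20.2 ± 1.53 CPM in parabiotic CD11c cells, and 9.90 ± 1.34 and 66.5 ± 16.9 CPM in microglia. Both were higher in transgenic than in parabiotic CD11c cells, by 3.10 ± 0.37 (adjusted p = 0.000456) and 0.94 ± 0.21 (adjusted p = 0.0163). Of 20 genes of the endoplasmic reticulum stress response, 1 was higher and 4 were lower in parabiotic CD11c cells than in microglia, among them the chaperone gene Hsp90b1 (-0.74 ± 0.18, adjusted p = 0.00888) and Herpud1 (-1.16 ± 0.24, adjusted p = 0.00296).

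Cell type markers also differed between the groups. All 12 microglia markers were lower, and all 12 dendritic cell markers higher, in parabiotic CD11c cells than in microglia. In transgenic CD11c cells all 12 microglia markers were higher than in parabiotic CD11c cells, and 4 of 12 dendritic cell markers were lower. By library, the dendritic cell marker sum, mostly Cd74, H2-Ab1 and H2-Aa, was 16003, 17295, 4182 and 7074 CPM in transgenic replicates 23, 24, 26 and 27. Replicate 26, the lowest, was also the lowest of its group for Nr4a2, Nr4a3, Fosl2, Dusp5 and Klf4. The microglia marker sum was 17818, 18424, 22121 and 9130 CPM in the same replicates, with replicate 27 the lowest. Of the 17 members that were lower in parabiotic CD11c cells than in microglia, 12 were lowest of the transgenic group in replicate 27, among them Egr1, Nfkbiz, Rhob and Jun. The other 5 (Egr2, Egr3, Ier5, Klf2 and Socs3) were lowest in replicate 26, which had the highest microglia marker sum, and Egr2 was highest in replicate 27. Of the 16 members not called, 9 were lowest in replicate 27. Neutrophil markers summed to 18.1 to 50.8 CPM in transgenic libraries and 51.1 to 956 CPM in parabiotic libraries, highest in replicate 11. In microglia they summed to 0.452 to 2.60 CPM, and Elane, Ly6g and Retnlg had 0 counts. Mmp8 ranged from 16.8 to 34.4 CPM in transgenic and from 44.7 to 105 CPM in parabiotic libraries. The granule genes S100a9 and Ngp ranged from 0.172 to 209 CPM and from 0.316 to 189 CPM in parabiotic libraries. Monocyte markers summed to 774 to 2654 CPM in transgenic libraries, 1695 to 2132 CPM in parabiotic libraries and 863 to 1240 CPM in microglia. Fn1 made up most of the microglia sum, averaging 1250 CPM in transgenic CD11c cells, 756 CPM in parabiotic CD11c cells and 1040 CPM in microglia. Ccr2 averaged 279, 731 and 6.72 CPM in the same order. Of the 10 monocyte markers, 8 were higher and 0 lower in parabiotic CD11c cells than in microglia. Markers of border macrophages summed to 217 to 320 CPM in transgenic replicates 23, 24 and 26 and 1205 CPM in replicate 27, 521 to 646 CPM in parabiotic libraries and 205 to 410 CPM in microglia. F13a1 was the largest part in CD11c cells, averaging 370 CPM in transgenic and 421 CPM in parabiotic CD11c cells, and 105 CPM in microglia. Of the 8 markers, 2 were higher and 3 lower in parabiotic CD11c cells than in microglia. Mrc1 and Cd163 averaged 57.1 and 2.55 CPM in parabiotic CD11c cells and 109 and 37.4 CPM in microglia. The part of the cell type make-up in the members' differences was not tested.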

How the data were processed

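The counts are the whole-number read counts per Ensembl gene that the authors deposited, 1 column per library, with no normalization. Reads were checked with FastQC 0.11.5 and aligned with STAR 2.5.3a to GRCm38, and DESeq2 was used, per the submitters' processing notes. How reads were assigned to genes, with which annotation and with what regard to strand is not given in the labels or notes used here. Per the labels' protocols, brains were dissociated with an enzymatic neural tissue kit, cells were passed over Percoll and sorted by reporter fluorescence without staining, and libraries were made with SMART-Seq v4 from 1 or 5 ng of RNA with 11 or 9 PCR cycles. Which library had which input is not stated.

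Of 28585 genes, 28492 had a symbol in GENCODE M21, and gene coordinates are from that annotation on GRCm38. Genes passing filterByExpr (15151 tested, 13434 removed) were fitted over all 10 libraries with edgeR 4.0.16 in R 4.3.3, using TMM scaling, a robust quasi-likelihood fit and 3 contrasts, with Benjamini-Hochberg adjustment over all tested genes. SE is the size of the log2 fold change over the square root of F. The biological coefficient of variation was 0.317, and counting error at the lowest count was at most 7.74% for 37 members and 28.9% for Egr3. Set means are means of log2 CPM with a prior count of 2. Members called in any comparison and averaging at least 20 CPM in their highest group, up to 6 in a family by lowest p, are given library by library, together with Fos, Junb, Nr4a1, Dusp5, Zfp36, Hspa1a and Hspa1b, which were added after their values were seen. From each list of other genes, examples come from the 3 genes with the lowest p in each direction. The members and lists were chosen with earlier results of these data known.

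Alternatives were RLE and upper quartile scaling, DESeq2 1.42.0, limma-voom (limma 3.58.1), no or a stricter filter (at least 5 CPM in 3 libraries), only the 2 groups compared, a term for transgenic replicates 26 and 27, and each of the 10 libraries left out in turn.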

Additional observations from a re-analysis of the deposited data

Results flagged for a closer look

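In the transgenic group of 4 libraries, 1 library stood far from the rest for 5 of the 38 members (13.2%). By the same measure 9.15% of the 15151 tested genes had such a library, where chance flags about 1 in 20 groups. In replicate 26, Fosl2 was at 67.8 CPM against 210 to 226 CPM in the other 3 libraries, Ier3 at 284 CPM against 197 to 206 CPM, Dusp1 at 1860 CPM against 1080 to 1160 CPM, and Gadd45b at 318 CPM against 207 to 222 CPM. In replicate 27, Nfkbiz was at 749 CPM against 990 to 1030 CPM in the other 3. Replicates 26 and 27 are the pair with library numbers apart from the rest. The groups of 3 libraries are too small for this check.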

How the results depend on the processing

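Of 41 called changes of members, 0 changed sign and 12 lost their call in at least 1 of the 18 other settings. Of 73 uncalled ones, 19 changed sign in some setting, none of them called there, and 23 were called in some setting. Immediate early members higher in transgenic than in parabiotic CD11c cells numbered 5, 8 with the term for transgenic replicates 26 and 27, and 4 to 9 with a library left out. Those lower there numbered 0, 2 with DESeq2, and 0 to 1 with a library left out. Against microglia, members higher in transgenic CD11c cells numbered 2, 5 with DESeq2 or the term, 1 with limma-voom or only the 2 groups compared, and 1 to 5 with a library left out. Those lower numbered 11, 7 with only the 2 groups compared, 8 with the term, and 5 to 11 with a library left out. Heat shock members lower in transgenic than in parabiotic CD11c cells numbered 0, 2 with DESeq2, and 0 to 2 with a library left out. Against microglia, 1 was lower in transgenic CD11c cells, 0 with the term or only the 2 groups compared, and 0 to 1 with a library left out. Between parabiotic CD11c cells and microglia 1 heat shock member was lower, and 0 to 1 with a library left out. The cause was not tested where fits differed in samples or tool. Other scalings moved the median of all genes by at most 0.082 on the log2 scale. No paired analysis was possible because the groups share no replicate numbers. With 3 or 4 libraries a group, the spread between libraries limits the members more than depth. For Egr3 counting error was also large, with a coefficient of variation of 28.9% at its lowest count. Between libraries that of Egr3 was 90.1% in transgenic and 38.5% in parabiotic CD11c cells.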
